A study of Mus musculus with 12 samples.

Results

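The respiratory chain genes comprised 109 of the 20776 gene rows of the deposited tables. They were taken by a rule on gene names, which was set with earlier results of these data known. They were all rows whose name starts with mt-, Nduf, Uqcr, Atp5 or Cox followed by a digit from 4 to 8, together with Sdha, Sdhb, Sdhc, Sdhd and Cyc1. Of these, 16 were transcripts of the mitochondrial genome (8 messenger RNAs, 2 ribosomal RNAs and 6 transfer RNAs) and 93 were nuclear rows. The nuclear rows held 36 complex I subunits, 8 complex I assembly factors (Ndufaf), 4 subunits of complex II, 9 of complex III, 19 of complex IV, 16 of complex V and the pseudogene Uqcrh-ps1. mt-Co2, mt-Co3, mt-Atp6, mt-Atp8 and mt-Nd4l are not analysed here.

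Cells came from the cortex of mice that had received a cortical injury, from a square of 3 by 3 mm around the wound taken 12 h later. The astrocyte fraction was the cells that stuck to a plate for ACSA-2, an astrocyte surface antigen, and the immune fraction those caught on plates coated with secondary antibody alone or for CD45, a surface protein of blood-derived and microglial cells. Each fraction was sequenced from Sema4B-/- (knockout) and Sema4B+/- (heterozygous) mice, 3 libraries in each of the 4 groups, so that both genotypes carried the mutant allele and all groups were injured. Age, sex, the deleted part of Sema4b and whether libraries came from separate animals are not given in the labels, so each p-value rests on the library-to-library spread, which may be technical. Libraries carry the number of their column head: 8, 10 and 12 are astrocyte knockouts, 2, 4 and 6 astrocyte heterozygotes, 7, 9 and 11 immune knockouts, and 1, 3 and 5 immune heterozygotes. In each group these numbers differ in part from those of the sample titles, so a library could not be tied to a single title.

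The respiratory chain is the set of protein complexes in the inner mitochondrial membrane that passes electrons from NADH and succinate to oxygen and uses the released energy to make ATP. Complex I oxidises NADH, complex II is the succinate dehydrogenase of the citric acid cycle, complex III passes electrons to cytochrome c, complex IV reduces oxygen and complex V is the ATP synthase. All of them but complex II are mosaics of subunits encoded by mitochondrial DNA and by the nucleus, made by separate transcription machineries. In the brain, neurons rely heavily on oxidative phosphorylation, while astrocytes combine it with glycolysis.

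Total reads were 15426713 to 15993564 in the astrocyte knockout libraries, 13530229 to 14768224 in the astrocyte heterozygotes, 13595280 to 15135960 in the immune knockouts and 11111965 to 13190826 in the immune heterozygotes. At these depths 3 reads, taken as the floor of detection for counting error alone, corresponded to 0.188 to 0.270 CPM (the reads of a gene scaled to a common library size). The summed CPM of 8 astrocyte markers was 28681 to 44251 in the astrocyte libraries and 551 to 1245 in the immune libraries, and that of 8 microglial markers was 369 to 658 and 7325 to 17283 in the same order. Markers of neurons, oligodendrocytes, endothelium, mural cells, neutrophils and red blood cells were also present, and no marker of these lists was at 0 over a whole group. The neuron sum was 1467 to 2957 CPM in the astrocyte libraries and 2009 to 5964 CPM in the immune libraries. That of oligodendrocytes was 2435 to 6060 and 379 to 816 CPM in the same order. Sema4b itself had 44.9, 27.7 and 58.3 CPM in astrocyte knockouts, against 68.9, 111 and 61.0 CPM in astrocyte heterozygotes. It had 5.38, 2.14 and 1.16 CPM in immune knockouts, against 8.83, 6.06 and 7.91 CPM in immune heterozygotes. The knockout libraries were lower in both fractions without overlap, but reads remained and neither difference passed the test (log2 fold change -0.88, adjusted p = 0.93, and -1.32, adjusted p = 0.27, quasi-likelihood test of edgeR, p-values adjusted by Benjamini-Hochberg).

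Mitochondrial transcripts took a several-fold larger part of the libraries than all nuclear chain genes together, and the share was higher in astrocytes. The mt- rows held 7.67, 6.66 and 7.16% of reads in astrocyte knockout libraries 8, 10 and 12, against 6.55, 4.56 and 6.18% in astrocyte heterozygous libraries 2, 4 and 6. In the immune fraction they held 2.90, 3.87 and 2.73% of reads in knockout libraries 7, 9 and 11, against 3.29, 2.94 and 2.71% in heterozygous libraries 1, 3 and 5. Every astrocyte library therefore stood above every immune library. Among the astrocyte libraries, the lowest knockout (6.66%, library 10) lay just above the highest heterozygote (6.55%, library 2).

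The nuclear rows were much closer between fractions. They held 1.17, 1.25 and 1.22% of reads in astrocyte knockouts, against 1.14, 1.04 and 1.12% in astrocyte heterozygotes. In immune libraries the shares were 0.718, 0.949 and 1.24% in knockouts, against 0.748, 0.956 and 0.902% in heterozygotes. Immune knockout library 11 thus had the second highest nuclear share of the 12 libraries and the second lowest mitochondrial one. Reads in mt- rows numbered 6.55, 5.32 and 5.89 per nuclear chain read in astrocyte knockouts and 5.75, 4.38 and 5.52 in astrocyte heterozygotes. The ratio was 4.04, 4.08 and 2.19 in immune knockouts and 4.40, 3.08 and 3.00 in immune heterozygotes, so the fractions overlapped at the edge: astrocyte library 4 (4.38) lay just below immune library 1 (4.40). In these bulk libraries fewer cells of a type and less RNA per cell cannot be told apart.

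**Figure D1:**
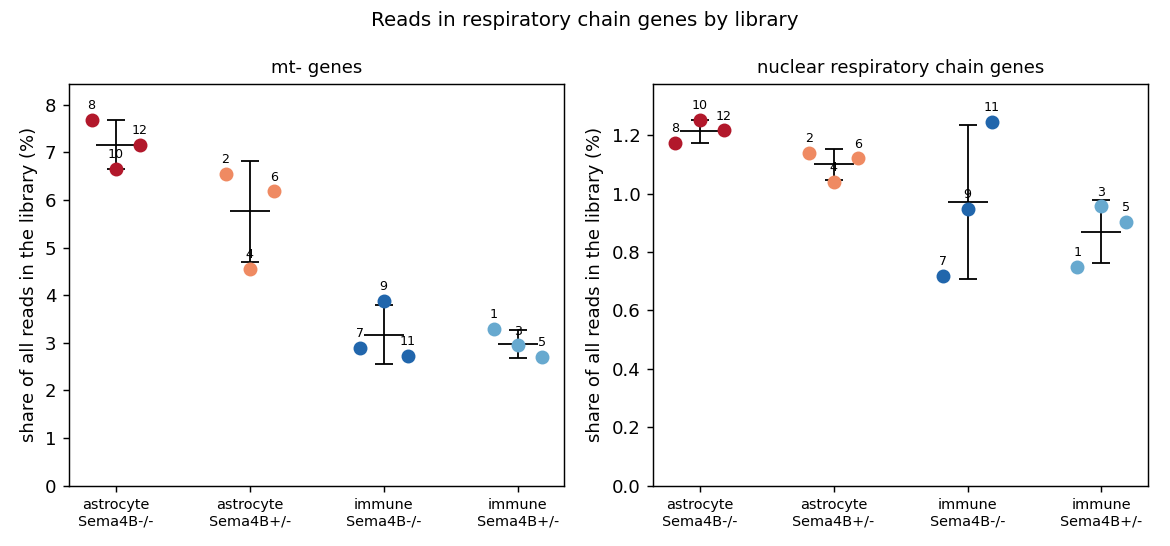
Share of all reads (%) that fell in the 16 mt- rows (left) and in the 93 nuclear chain rows (right), 1 numbered point per library, with the group mean and SD (n = 3) as bars. The mitochondrial share was 4.56 to 7.67% in the astrocyte libraries and 2.71 to 3.87% in the immune libraries, while immune library 11 reached the nuclear share of the astrocyte libraries.

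Per kilobase of exon, the mitochondrial messenger RNAs were far above the nuclear ones, with the exception of mt-Nd3. Exon length was the union of all annotated exons of a gene, which can be longer than any of its transcripts. The order of nuclear genes and the medians per kb therefore depend on the annotation. In the astrocyte knockouts the highest levels were those of mt-Cytb, the cytochrome b of complex III, with 16536 CPM per kb, and of mt-Co1, the catalytic subunit of complex IV, with 15441 CPM per kb. In the astrocyte heterozygotes these genes had 12470 and 12266 CPM per kb. mt-Nd1, mt-Nd2, mt-Nd6, mt-Nd4 and mt-Nd5, the membrane subunits of complex I, followed at 8234 to 3670 CPM per kb in astrocyte knockouts. The highest nuclear members were Cox8a (636 CPM per kb) and Cox6a1 (524 CPM per kb), small structural subunits of complex IV, then Ndufc2 of complex I (348 CPM per kb) and Atp5a1 and Atp5b, the alpha and beta subunits of the ATP synthase head (333 and 316 CPM per kb). The medians of the nuclear subunits, in astrocyte knockouts, astrocyte heterozygotes, immune knockouts and immune heterozygotes in turn, were 65.5, 58.3, 47.4 and 45.7 CPM per kb in complex I. They were 96.7, 84.8, 52.0 and 50.01 in complex II and 100.4, 84.5, 67.9 and 71.4 in complex III. In complex IV they were 43.4, 35.8, 36.5 and 36.5, and in complex V 58.5, 50.1, 44.1 and 46.3.

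Among the 8 mitochondrial messenger RNAs analysed, mt-Nd3 stood out by its near absence. mt-Nd3 had 0.496, 1.26 and 0.654 CPM in astrocyte knockouts, 0.481, 0.372 and 0.551 CPM in astrocyte heterozygotes, 0.177, 0.414 and 0.406 CPM in immune knockouts and 0.736, 0.0722 and 0.425 CPM in immune heterozygotes, too low to be tested. All other mitochondrial messenger RNAs analysed lay at 693 CPM or more in every library. The sequence of mt-Nd3 (chrM:9459-9806, plus strand) is nearly that of Gm28438, an unprocessed pseudogene in the nuclear genome (chr1:24612775-24613119, minus strand): of 345 aligned bases 1 differed, and 98% of its 50-base stretches occurred in other annotated transcripts. The first 90 bases of both, at chrM:9459-9548 and chr1:24613030-24613119 of GRCm38, are shown because this is where the single mismatch lies, in capitals.
mt-Nd3: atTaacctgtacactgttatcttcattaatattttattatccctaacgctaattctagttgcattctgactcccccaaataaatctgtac
Gm28438: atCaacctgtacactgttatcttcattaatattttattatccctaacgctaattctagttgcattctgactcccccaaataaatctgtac
Other members also shared 50-base stretches with other transcripts: mt-Nd4 at 62.2%, mt-Co1 at 51.1%, Ndufaf2 at 64.1%, Atp5o at 41.6% and Atp5g2 at 38.3%. How the authors' counting treated reads that fit several places is not given in the sources used here, and its part in these levels was not tested. mt-Nd6 lies on the strand opposite to the other mitochondrial messenger RNAs, and since the use of strand in counting is not given, its reads cannot be told apart from antisense ones.

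Astrocytes were compared with immune cells within each genotype, where both names stand for fractions that also held other cells. Of the oligodendrocyte markers 6 of 6 were called higher in the astrocyte fraction in both genotypes, and of the endothelial markers 4 of 5. Of the neuron markers 4 of 8 were called lower there in knockouts and 1 of 8 in heterozygotes, and 0 higher. Their part in the chain differences was not tested. Most mitochondrial messenger RNAs were higher in astrocytes in both genotypes, the nuclear genes in part, and a few tissue-restricted isoforms differed by far more than the rest. In the knockouts 50 of the 103 members tested were higher in astrocytes and 2 lower (48.5 and 1.94%), where 29.0% of all 16880 genes tested were called higher and 30.7% lower. In the heterozygotes 33 were higher and 3 lower, where 30.0% of all genes were called higher and 30.3% lower. The share of members called higher in the heterozygotes was thus close to that of all genes, while few members were called lower in either genotype. In fits of only the 6 libraries of a genotype, 38 members were higher in knockouts and 40 in heterozygotes. The order of the genotypes in these counts thus depended on the fit, and the shares of all genes in those fits are not given here. Calls were at an adjusted p under 0.05 in edgeR's quasi-likelihood test, and comparisons within the 2 genotypes used different libraries.

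Of the mt- rows, 11 of the 12 tested rose in astrocytes of the knockouts (median log2 fold change 1.46) and 7 of 12 in those of the heterozygotes (median 0.88), where the median of all genes was -0.07 and -0.04. mt-Co1 had 25642, 20906 and 25021 CPM in astrocyte knockouts, against 6593, 9281 and 5639.9 CPM in immune knockouts. In heterozygotes it had 22179, 15104 and 19569 CPM in astrocytes, against 8641, 7133 and 6268 CPM in immune cells. No astrocyte library overlapped an immune one, with log2 fold changes of 1.73 ± 0.265 (SE; adjusted p = 8.37e-05, edgeR) in knockouts and 1.37 ± 0.262 (adjusted p = 0.00049) in heterozygotes. mt-Cytb, mt-Nd4, mt-Nd5, mt-Nd2 and mt-Nd6 rose by 1.35 to 1.59 on the log2 scale in knockouts and by 0.88 to 1.25 in heterozygotes.

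mt-Nd1 departed from the other messenger RNAs. It had 8619, 7339.6 and 7681 CPM in astrocyte knockouts, against 4551, 6168 and 4279 CPM in immune knockouts, and rose by 0.66 ± 0.23 (adjusted p = 0.027, edgeR). In heterozygotes it had 6859, 4823 and 6014 CPM in astrocytes, against 6216, 4900.5 and 4381 CPM in immune cells, which overlapped (log2 fold change 0.19 ± 0.23, adjusted p = 0.50). The call in knockouts was lost without immune library 7 or 11 or astrocyte library 8 or 12 (adjusted p 0.055 to 0.089). It was also lost in the fit of the knockout libraries alone (adjusted p = 0.078, edgeR). The ribosomal RNAs mt-Rnr1 (12S) and mt-Rnr2 (16S) rose by 1.91 ± 0.28 and 1.43 ± 0.30 in knockouts. In heterozygotes mt-Rnr1 rose by 0.88 ± 0.27 (adjusted p = 0.012), a call lost without library 2 or 3, and mt-Rnr2 was 0.42 ± 0.29 (adjusted p = 0.23). The transfer RNAs mt-Tc and mt-Tl1 were called in knockouts at 2.21 and 4.90 CPM in astrocytes, against 0.797 and 2.29 CPM in immune cells, and each lost the call without library 7, 8, 11 or 12. mt-Tl1 also lost it in the fit of the knockout libraries alone (adjusted p = 0.070, edgeR). mt-Ta was not called (0.92 in knockouts, 0.22 in heterozygotes), and mt-Tm, mt-Tp and mt-Tq stayed under 1 CPM in every library and were not tested.

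Of the 91 nuclear members tested, 39 rose and 2 fell in astrocytes of the knockouts (median log2 fold change 0.54), and 26 rose and 3 fell in those of the heterozygotes (median 0.29). The share that rose in heterozygotes was slightly below the 30.0% of all genes called higher there, and that in knockouts above 29.0%. Without immune library 7 the median in knockouts was 0.28, and without immune library 1 that in heterozygotes was 0.19. Of complex II, the link to the citric acid cycle, 4 of 4 subunits rose in knockouts and 3 of 4 in heterozygotes. Sdha, its flavoprotein (chr13:74322254-74350280), had 438, 450.3 and 501 CPM in astrocyte knockouts, against 193, 191 and 199 CPM in immune knockouts. In heterozygotes it had 487, 427 and 420.1 CPM in astrocytes, against 199, 214 and 159 CPM in immune cells. The fractions were far apart in both genotypes, with log2 fold changes of 1.25 ± 0.16 (adjusted p = 1.5e-05, edgeR) and 1.22 ± 0.16 (adjusted p = 1.6e-05). Sdhc, a membrane anchor, rose by 1.25 in knockouts and 0.88 in heterozygotes, and Sdhb, the iron-sulfur subunit, by 0.71 and 0.64.

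Complex I had 16 of 36 subunits higher in astrocytes of the knockouts and 10 of 36 in those of the heterozygotes, and none lower, the second count being below the 30.0% of all genes. Ndufc2 (chr7:97400003-97407802), a small membrane-arm subunit, had 249, 243 and 296 CPM in astrocyte knockouts, against 78.8, 94.5 and 103 CPM in immune knockouts. In heterozygotes it had 246, 197 and 239 CPM in astrocytes, against 91.1, 86.2 and 77.9 CPM in immune cells, and it rose by 1.51 ± 0.16 and 1.42 ± 0.16 (adjusted p = 2.7e-06 and 4.1e-06, edgeR). Ndufb11 rose by 1.33 ± 0.18 in knockouts and 1.03 ± 0.18 in heterozygotes. Core subunits of the arm that takes electrons from NADH were uneven: Ndufs1 rose by 1.05 in knockouts and 1.03 in heterozygotes, Ndufv1 by 0.86 and 1.02, and Ndufs3 by 0.63 and 0.51. Ndufv2 (0.63) and Ndufs7 (0.54) were called in knockouts but not in heterozygotes (0.39 and 0.43), and Ndufs8 in neither (0.29 and 0.03). In complex III, 4 of 9 rose in knockouts and 3 of 9 in heterozygotes, led by Uqcrfs1 (chr13:30540308-30545362), the Rieske iron-sulfur protein. Uqcrfs1 had 204, 198 and 219 CPM in astrocyte knockouts, against 71.6, 81.3 and 91.7 CPM in immune knockouts, and rose by 1.34 ± 0.14 there and by 1.28 ± 0.14 in heterozygotes. In complex V, 8 of 16 rose and 1 fell in knockouts, and 5 rose and 1 fell in heterozygotes. Atp5a1 rose by 0.71 and 0.67, and Atp5b was called in knockouts (0.57, adjusted p = 0.014) but not in heterozygotes (0.40, adjusted p = 0.069).

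**Figure D2:**
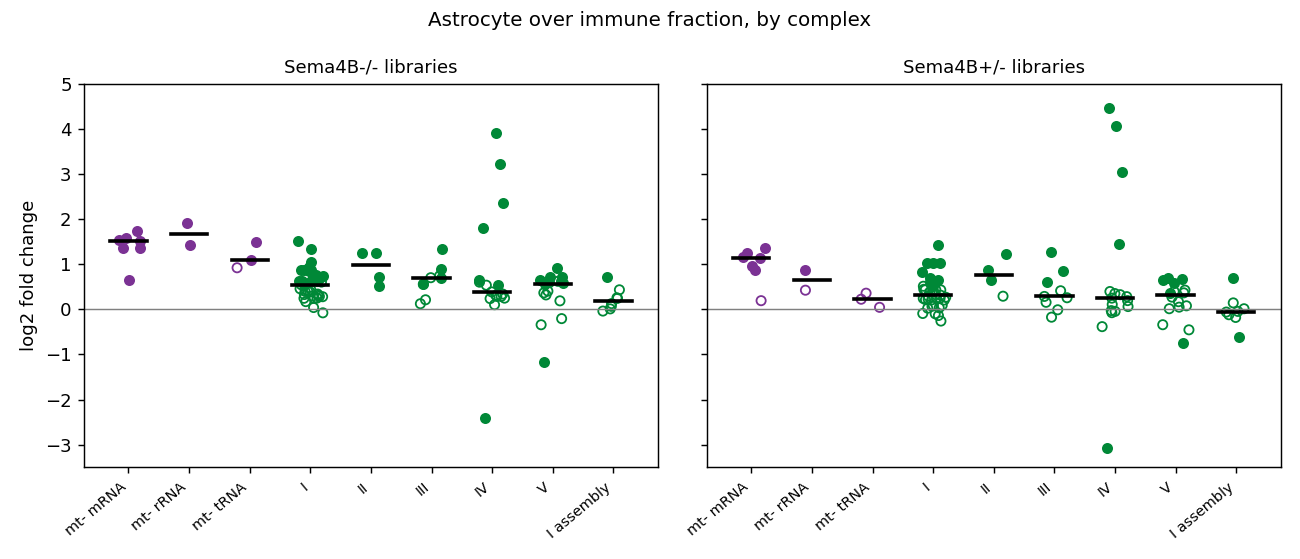
Log2 fold change of astrocyte over immune libraries for each member tested, by mitochondrial RNA class and by complex of the nuclear members, in knockouts (left) and heterozygotes (right). Filled points passed an adjusted p of 0.05, black bars are medians, and the pseudogene is left out. All tested mt- rows lay above 0, and complex IV held both the highest and the lowest values.

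Promoters are shown for 2 of the genes named as highest in astrocytes, Sdha with matches to the motifs below and Ndufc2 without. RefSeq promoters (GRCm38.p6, 250 bases before to 50 after the start of the gene) were matched for 74 of the 93 nuclear members, giving 79 promoters. The motif of NRF1, a transcription factor known to bind promoters of respiratory chain genes, was searched on both strands, with its middle position free. It was found in 20 of the 79 promoters (25.3%) and in 1512 of all 32851 promoters (4.6%). The core motif of ETS factors such as GABPA, CCGGAAG or its reverse CTTCCGG, whose matches can overlap those of NRF1 by a base at the ends, was found in 18 of the 79 (22.8%) and in 2910 of all promoters (8.86%). The Sdha window (chr13:74350191-74350490, minus strand) held 3 NRF1 matches, in capitals, and no ETS match, and the Ndufc2 window (chr7:97399753-97400052, plus strand) held none of either. The windows of Uqcrfs1 and Ndufb11, also among the genes named as highest in astrocytes, held none of either as well. A match is a description of the letters and not a measure of binding.
Sdha: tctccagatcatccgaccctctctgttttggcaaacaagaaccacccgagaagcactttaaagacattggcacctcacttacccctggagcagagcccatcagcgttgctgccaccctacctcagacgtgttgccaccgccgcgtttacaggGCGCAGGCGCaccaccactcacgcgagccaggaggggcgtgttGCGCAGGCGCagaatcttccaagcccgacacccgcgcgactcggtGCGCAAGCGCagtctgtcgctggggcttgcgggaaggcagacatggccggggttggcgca
Ndufc2: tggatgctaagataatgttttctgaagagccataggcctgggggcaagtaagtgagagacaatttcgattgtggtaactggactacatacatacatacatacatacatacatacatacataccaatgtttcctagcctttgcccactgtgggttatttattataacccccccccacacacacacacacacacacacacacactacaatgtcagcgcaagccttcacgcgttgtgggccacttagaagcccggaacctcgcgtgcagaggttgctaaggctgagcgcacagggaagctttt

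Complex IV has subunits with a common isoform and a second one restricted to particular tissues, and it was the restricted isoforms that separated the fractions. Ndufa4l2, a hypoxia-inducible relative of Ndufa4 and a known marker of brain pericytes, had 12.8, 8.38 and 11.0 CPM in astrocyte knockouts, against 1.66, 4.42 and 0.348 CPM in immune knockouts. In heterozygotes it had 14.9, 5.65 and 19.6 CPM in astrocytes, against 0.245, 0.866 and 0.680 CPM in immune cells. No library of a fraction overlapped the other, with log2 fold changes of 2.35 ± 0.62 (adjusted p = 0.0053, edgeR) in knockouts and 4.45 ± 0.74 (adjusted p = 0.00014) in heterozygotes, the value in knockouts being 3.41 without library 9. Cox4i2, the lung and pericyte isoform of subunit 4, had 16.1, 9.77 and 12.8 CPM in astrocyte knockouts, against 0.414, 1.87 and 0.348 CPM in immune knockouts. It had 11.5, 8.11 and 14.1 CPM in astrocyte heterozygotes, against 0.654, 0.650 and 0.680 CPM in immune heterozygotes, and rose by 3.91 ± 0.47 and 4.07 ± 0.50.

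Mural cell markers moved with these genes. The summed CPM of the 8 mural markers was 1196, 694 and 891 in astrocyte knockouts and 1391, 928 and 1544 in astrocyte heterozygotes. It was 155, 456 and 21.8 in immune knockouts and 29.3, 111 and 85.6 in immune heterozygotes. Of the 8 markers, 5 rose and 3 fell in astrocytes of the knockouts, and 5 rose and 1 fell in those of the heterozygotes. Among immune libraries, number 9 was highest in Ndufa4l2, Cox4i2 and the mural sum alike, and the part of mural cells in these differences was not tested.

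Cox6b2, known as the testis isoform of subunit 6b, had 6.66, 4.39 and 5.81 CPM in astrocyte knockouts, against 0.414, 0.691 and 0.696 CPM in immune knockouts, and rose by 3.21 ± 0.29 there and by 3.05 ± 0.30 in heterozygotes. Cox7a1, the heart and muscle isoform of subunit 7a, rose by 1.80 ± 0.37 and 1.44 ± 0.40 at 1.78 to 3.05 CPM in astrocytes. Cox6a2, the heart and muscle isoform of subunit 6a, went the other way: it had 1.06, 1.13 and 1.02 CPM in astrocyte knockouts, against 5.74, 5.46 and 5.92 CPM in immune knockouts. In heterozygotes it had 1.20, 0.595 and 1.17 CPM in astrocytes, against 12.2, 4.47 and 8.59 CPM in immune cells. It fell in astrocytes by 2.40 on the log2 scale in knockouts (SE 0.36, adjusted p = 7.5e-05, edgeR) and by 3.07 in heterozygotes (SE 0.37, adjusted p = 8.1e-06), with no overlap. The common partners differed far less: log2 fold changes in knockouts and heterozygotes were 0.64 and 0.32 for Cox4i1, 0.53 and 0.28 for Cox6a1, 0.31 and 0.06 for Cox6b1, 0.39 and 0.25 for Cox7a2, and 0.29 and 0.19 for Ndufa4. Cox7b had 0.24 and -0.05 and Cox7a2l 0.34 and -0.07. Of these, Cox4i1 in knockouts passed the test (adjusted p = 0.016), a call lost without library 12 (adjusted p = 0.052). It was also lost in the fit of the knockout libraries alone (adjusted p = 0.063, edgeR). Cox7b2 and Cox8b were under 1 CPM in every library and were not tested.

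**Figure D3:**
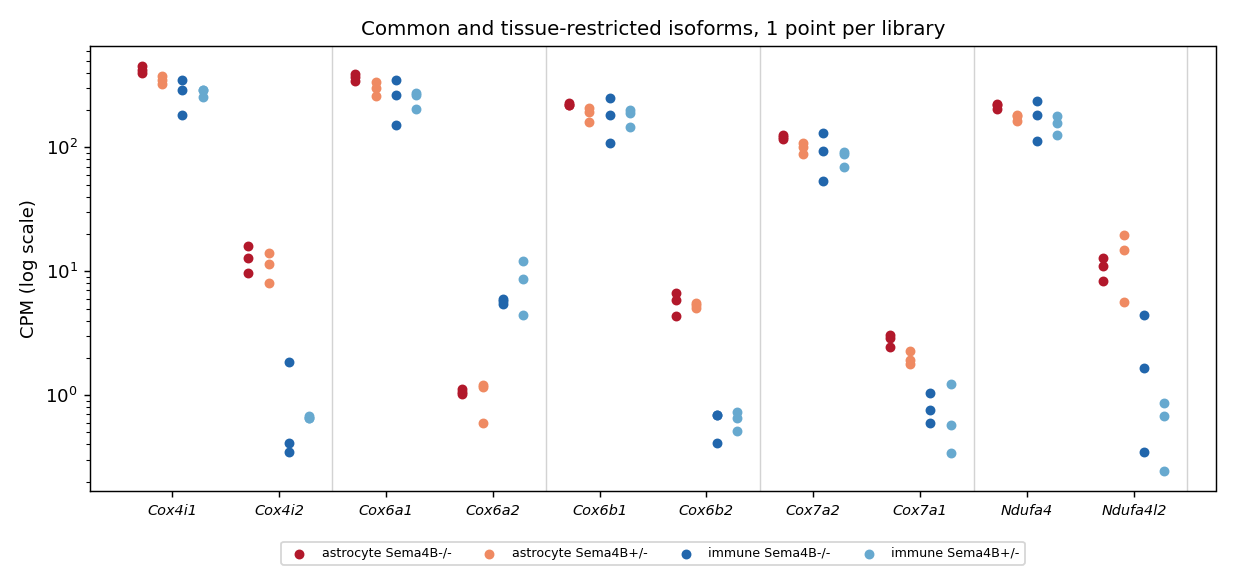
CPM on a log scale of 5 pairs of a common and a restricted isoform of complex IV, 1 point per library, coloured by group. The common isoforms lay at 53.2 to 452 CPM in all groups, while Cox4i2, Cox6b2, Cox7a1 and Ndufa4l2 were higher in astrocytes and Cox6a2 was lower.

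Besides Cox6a2, Atp5l, the subunit g of ATP synthase, was lower in astrocytes: it had 4.39, 3.12 and 3.05 CPM in astrocyte knockouts, against 10.3, 6.77 and 6.56 CPM in immune knockouts, and fell by 1.16 (SE 0.26, adjusted p = 0.0016, edgeR). In heterozygotes it fell by 0.75, a call lost without library 1, 2, 5 or 6. Its exons in the GENCODE annotation cover 6443 bases, and 648 of its 6487 50-base stretches (9.99%) occurred in transcripts of 642 other genes. As all annotated transcripts are counted, this share does not tell how much of its main messenger RNA is shared. The part of shared sequence in its level was not tested. Ndufaf8, a complex I assembly factor, fell by 0.62 in heterozygotes (adjusted p = 0.044), a call lost without library 1, 2, 4, 5 or 6, with the fold change -0.37 without library 5. The call was also lost with RLE or upper-quartile in place of TMM scaling (adjusted p = 0.056 and 0.058, edgeR). With a correction for exon length the adjusted p was 0.23 (edgeR). In knockouts Ndufaf8 had 15.9, 14.0 and 16.0 CPM in astrocytes, against 9.23, 15.8 and 17.0 CPM in immune cells. The 3 genes of the identical subunit c were uneven in level: Atp5g3 averaged 283 ± 24.1 CPM, Atp5g1 20.5 ± 2.46 CPM and Atp5g2 1.23 ± 0.380 CPM in astrocyte knockouts (SD, n = 3), and Atp5g3 alone passed the test, in knockouts (0.63, adjusted p = 0.013), a call lost without library 12 (adjusted p = 0.050) and in the fit of the knockout libraries alone (adjusted p = 0.056). Of their 50-base stretches, 0% in Atp5g3, 11.1% in Atp5g1 and 38.3% in Atp5g2 occurred in transcripts of other genes. The part of shared sequence in these levels was not tested.

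Among genes that serve the chain, the citric acid cycle was the list most often higher in astrocytes, with 10 of 14 higher and 0 lower in each genotype (median log2 fold change 0.66 in knockouts and 0.68 in heterozygotes). Idh2, mitochondrial isocitrate dehydrogenase, averaged 276 ± 45.3 CPM in astrocyte knockouts and 58.8 ± 11.0 CPM in immune knockouts (SD, n = 3 each), and Cs, citrate synthase, 739 ± 82.8 and 226 ± 17.1 CPM. Among all genes, 29.0% were called higher and 30.7% lower in knockouts, and 30.0 and 30.3% in heterozygotes, and the counts called higher among ribosomal proteins, assembly factors, genes of mitochondrial DNA expression and regulators were below these shares. Of the mitochondrial ribosomal proteins, 18 of 80 were higher and 8 lower in knockouts, and 10 higher and 12 lower in heterozygotes, with Mrps6 of the small subunit rising by 2.36 and 2.06. Assembly factors outside the Ndufaf names gave 11 higher and 2 lower of 38 in knockouts and 9 higher and 3 lower in heterozygotes, with Uqcc1, an assembly factor of complex III, higher in both (1.01 and 0.98). Genes of mitochondrial DNA expression and copying gave 6 higher and 4 lower of 30 in knockouts and 3 higher and 7 lower in heterozygotes. Hsd17b10, part of mitochondrial RNase P, rose by 1.41 and 1.19, and Tbrg4, an RNA-binding FAST kinase protein, fell by 1.12 and 1.39. Of the 14 nuclear regulators, 4 were higher and 5 lower in knockouts and 4 higher and 8 lower in heterozygotes. Ppara, a receptor that drives fatty acid oxidation genes, rose by 5.71 and 5.04, while Pprc1, a coactivator related to PGC-1, fell by 2.00 and 2.18. Of 12 electron and nucleotide carriers, 5 were higher and 2 lower in knockouts and 4 higher and 3 lower in heterozygotes, with Etfdh, which feeds electrons from fatty acid oxidation, higher (1.78 and 1.46). Ucp2, an inner membrane carrier prominent in myeloid cells, averaged 82.1 ± 19.4 CPM in astrocyte knockouts and 962 ± 259.6 CPM in immune knockouts and fell by 3.55 (SE 0.31, adjusted p = 4.7e-07, edgeR).

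Knockout and heterozygous astrocytes were compared next, to ask whether loss of Sema4B changed chain transcripts. No member passed the test (lowest adjusted p = 0.93, edgeR), nor did any of the 15468 genes tested, and DESeq2 and limma-voom also called 0 members. Nearly all members nevertheless had values on one side: 100 of 103 had a positive log2 fold change, where 50.7% of all genes did. At an unadjusted p under 0.05, 35 members (34.0%) were higher in knockouts and 0 lower, where 1.70% of all genes were higher and 2.13% lower. In 54 members (52.4%) every knockout library stood above every heterozygous one, and in 0 below, where 6.04% of all genes stood above and 4.89% below. Members share libraries, so these counts are not independent observations. Of cell type markers none was called, and 8 of 8 microglial (median 0.19), 7 of 8 astrocyte (0.10) and 5 of 6 oligodendrocyte markers (0.11) were positive. Of the mural (-0.52), endothelial (-0.21) and red blood cell markers (-0.72) 0 of 8, 0 of 5 and 0 of 5 were positive, of the neuron markers 2 of 8 (-0.04) and of the neutrophil markers 1 of 6 (-0.43). Their part in the members' values was not tested.

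The differences were small, and the counts depended on single libraries. Without library 12 the number at an unadjusted p under 0.05 was 3, without library 4 it was 6, without library 8 it was 8 and without library 6 it was 23. The fit of all 12 libraries gave 3 and a fit with an exon-length correction 5. The number without overlap was 33 under RLE scaling in place of 54 under TMM.

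Among the mt- rows, the ribosomal RNAs and 2 of the 3 transfer RNAs tested had higher genotype values than the messenger RNAs, none of them past the test. The transfer RNAs were low: mt-Tc had 2.69, 1.26 and 2.69 CPM in astrocyte knockouts, against 1.52, 0.744 and 1.03 CPM in astrocyte heterozygotes, which overlapped (log2 fold change 1.01 ± 0.39, unadjusted p = 0.032, adjusted p = 0.93, edgeR). mt-Tl1 had a value of 0.94 and mt-Ta of 0.29, both with overlap. mt-Rnr1 had 2623, 1677 and 2137 CPM in astrocyte knockouts, against 1419.6, 818 and 1051 CPM in astrocyte heterozygotes, so the groups did not overlap (log2 fold change 0.97 ± 0.23, unadjusted p = 0.00235, adjusted p = 0.93, edgeR). The authors' deposited table gave it a log2 fold change of 0.976 with an adjusted p of 0.178, the lowest of the members there. mt-Rnr2 had 3208, 1711 and 2745 CPM in knockouts, against 1854, 1132 and 1468 CPM in heterozygotes, where knockout library 10 lay within the heterozygous range (0.78 ± 0.25). The 7 mitochondrial messenger RNAs tested had values from 0.19 for mt-Nd5 to 0.42 for mt-Nd1, and only mt-Nd1 was without overlap among them. The median of the 12 mt- rows was 0.41, and 0.23 without heterozygous library 4, which had the lowest mitochondrial share of the astrocyte libraries. How RNA was selected before sequencing is not given in the sources used here.

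The nuclear members had a median log2 fold change of 0.23, with 88 of 91 positive and none past the test. Medians were 0.24 in complex I (36 of 36 positive), 0.17 in complex II, 0.21 in complex III, 0.27 in complex IV, 0.23 in complex V and 0.16 in the Ndufaf assembly factors. Ndufb9, an accessory subunit of complex I, had the lowest p: it had 138, 122 and 148 CPM in knockouts, against 116, 97.7 and 108 CPM in heterozygotes, which did not overlap (0.35 ± 0.11, unadjusted p = 0.0099, adjusted p = 0.93). Uqcr10, a small subunit of complex III, had 127, 120.0 and 139.9 CPM in knockouts, against 112, 89.99 and 107 CPM in heterozygotes (0.33 ± 0.11). Ndufa4 of complex IV and Ndufa7 of complex I had values of 0.30 ± 0.10 and 0.29 ± 0.10. The exceptions were Ndufa4l2 (-0.32 ± 0.39), Atp5l (-0.40 ± 0.23) and Atp5g2 (-0.53 ± 0.33), the first 0.071 without library 6. The authors' deposited table likewise held 0 members at an adjusted p of 0.05 and 106 of 109 with a positive value in astrocytes.

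Exon length, as the union of all annotated exons of a gene and not the length of a transcript, moved with the genotype values in astrocytes. Nuclear members under 1 kb of exon had a median of 0.27, those of 1 to 2 kb 0.24, those of 2 to 4 kb 0.18 and those over 4 kb 0.19. Over all genes tested the medians in these classes were 0.17, 0.12, 0.05 and -0.05. The median of the members lay above that of all genes in each class, and with the length correction their median was 0.14 for nuclear and 0.28 for mt- rows. In the other mitochondrial lists, 74 of 78 ribosomal proteins were positive (median 0.17), with Mrpl40 at 0.34 and Mrpl12 at 0.29. Of the citric acid cycle, 13 of 14 were positive (0.10), of the carriers 12 of 12 (0.17), of the other assembly factors 31 of 37 (0.14), of the genes of mitochondrial DNA expression 20 of 30 (0.03), and of the regulators 4 of 14 (-0.10). None of these genes passed the test in either fraction. In immune cells 41 of 80 mitochondrial ribosomal proteins, 10 of 14 citric acid cycle genes and 7 of 29 genes of mitochondrial DNA expression were positive.

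**Figure D4:**
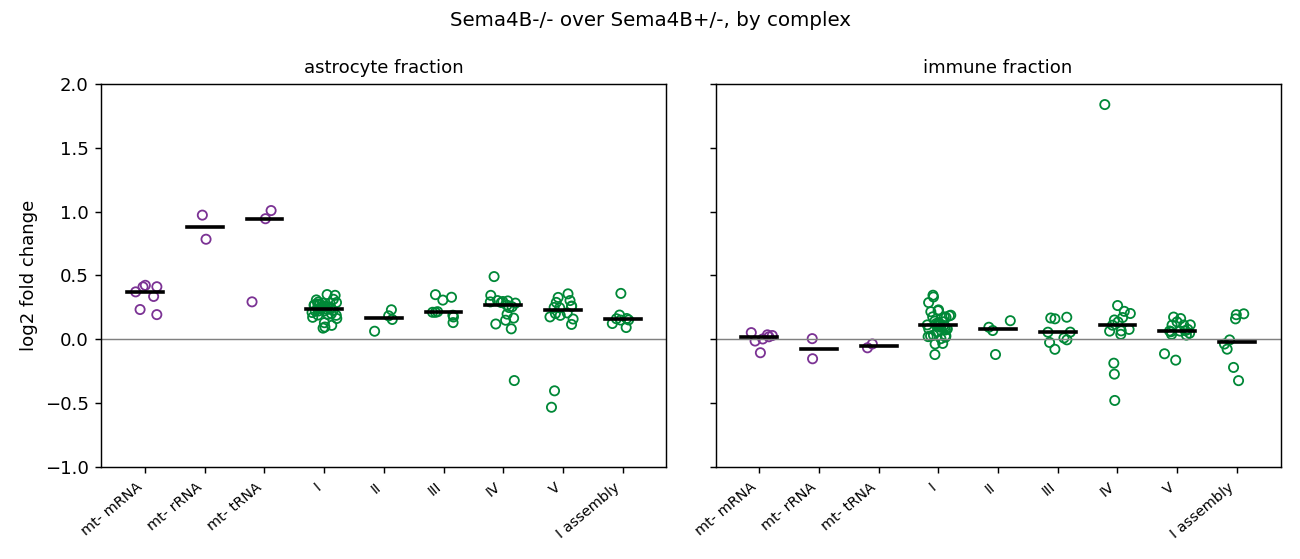
Log2 fold change of knockout over heterozygote for each member tested, by mitochondrial RNA class and by complex of the nuclear members, in the astrocyte fraction (left) and the immune fraction (right). Open points did not pass an adjusted p of 0.05, which no member did, and black bars are medians. Counting the pseudogene, which is not drawn, 100 of 103 values were above 0 in astrocytes (median 0.24). In immune cells 78 of 100 were (median 0.07), with Ndufa4l2 at 1.84.

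In the immune fraction the same question gave values around 0. Besides the members too low in both fractions, mt-Ta, Cox4i2 and Cox6b2 were not tested here. No member passed the test (lowest adjusted p = 0.34, edgeR), DESeq2 and limma-voom also called 0, and 1 member of 100 was higher at an unadjusted p under 0.05 and 0 lower, where 9.69% of all 15648 genes were higher and 4.90% lower. In 1 member, Ndufv1, the knockout libraries stood above the heterozygous ones and in 2, Cox7c and Ndufaf4, below, where 9.29% of all genes stood above and 11.2% below. A positive log2 fold change was held by 78 of the 100 members, where 49.6% of all genes had one. The median was 0.00 for the 11 mt- rows tested and 0.09 for the 89 nuclear ones. The nuclear median turned to -0.18 without knockout library 11 and was 0.34 without knockout library 7. The one gene at an unadjusted p under 0.05 was Ndufa4l2, with a log2 fold change of 1.84 ± 0.81 (unadjusted p = 0.048, adjusted p = 0.34, edgeR), whose groups overlapped. The 8 mural markers were all positive here (median 1.67) and none was called, and in astrocytes, where Ndufa4l2 was -0.32, 0 of 8 were positive (median -0.52). Their part in the value was not tested. Ndufv1, which binds NADH in complex I, had 89.0, 87.0 and 102 CPM in knockouts, against 80.8, 85.1 and 63.5 CPM in heterozygotes (0.35 ± 0.18). Cox7c of complex IV had 13.8, 15.8 and 17.0 CPM in knockouts, against 20.9, 17.8 and 20.4 CPM in heterozygotes (-0.27 ± 0.18). Ndufaf4, a complex I assembly factor, had 35.5, 38.0 and 34.8 CPM in knockouts, against 47.4, 41.5 and 43.1 CPM in heterozygotes (-0.22 ± 0.15). Among nuclear members with a mean of at least 5 CPM, the other genes with the lowest p-values were Ndufs7 (0.23), Ndufc2 (0.18), Uqcrfs1 (0.17), Cox6a2 (-0.48) and Ndufaf8 (-0.32), none of them called.

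The spread among immune libraries exceeded the genotype difference and was common to many nuclear members. Uqcr10 had 31.2, 79.6 and 120.4 CPM in knockout libraries 7, 9 and 11, against 48.3, 79.4 and 105 CPM in heterozygous libraries 1, 3 and 5. Cox6c of complex IV had 60.3, 139 and 192 CPM in these knockouts, against 87.0, 135 and 168 CPM in the heterozygotes. Libraries 7 and 1 were low in both genes and library 11 high, across the genotypes. Mitochondrial messenger RNAs did not follow: mt-Cytb had 5633, 8067 and 5202 CPM in the knockouts, against 7539, 5853 and 5686 CPM in the heterozygotes, highest in library 9 and lowest in library 11. Sdha of complex II had 193, 191 and 199 CPM in knockouts, against 199, 214 and 159 CPM in heterozygotes, with library 5 the lowest.

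Exon length, again as the union of all annotated exons of a gene, ran along this spread. The classes are therefore not classes of transcript length. As the median deviation from the mean of 12 libraries on the log2(CPM + 0.5) scale, nuclear members under 1 kb stood at -0.89, -0.10 and 0.32 in knockout libraries 7, 9 and 11 and at -0.47, -0.10 and 0.03 in heterozygous libraries 1, 3 and 5. Members over 4 kb stood at -0.41, -0.09 and 0.06 in the knockouts and at -0.12, -0.09 and -0.12 in the heterozygotes. All genes under 1 kb stood at -0.14, 0.16 and 0.18 in the knockouts and at 0.19, 0.13 and 0.26 in the heterozygotes, so library 1 was low in short chain genes but not in short genes in general. The summed CPM of 8 neuron markers was 3940, 3470 and 5964 in the knockouts and 2009, 3563 and 3239 in the heterozygotes. That of 8 microglial markers was 10550, 11538 and 7325 in the knockouts and 17283, 12881 and 13214 in the heterozygotes, and that of 7 neutrophil markers 996, 1410 and 538 and 1712, 1130 and 2431 in the same order. All 8 neuron markers had a positive genotype value, and 0 of 8 microglial (median -0.50) and 0 of 7 neutrophil markers (median -0.79) did. None was called, and their part in the chain levels was not tested.

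**Figure D5:**
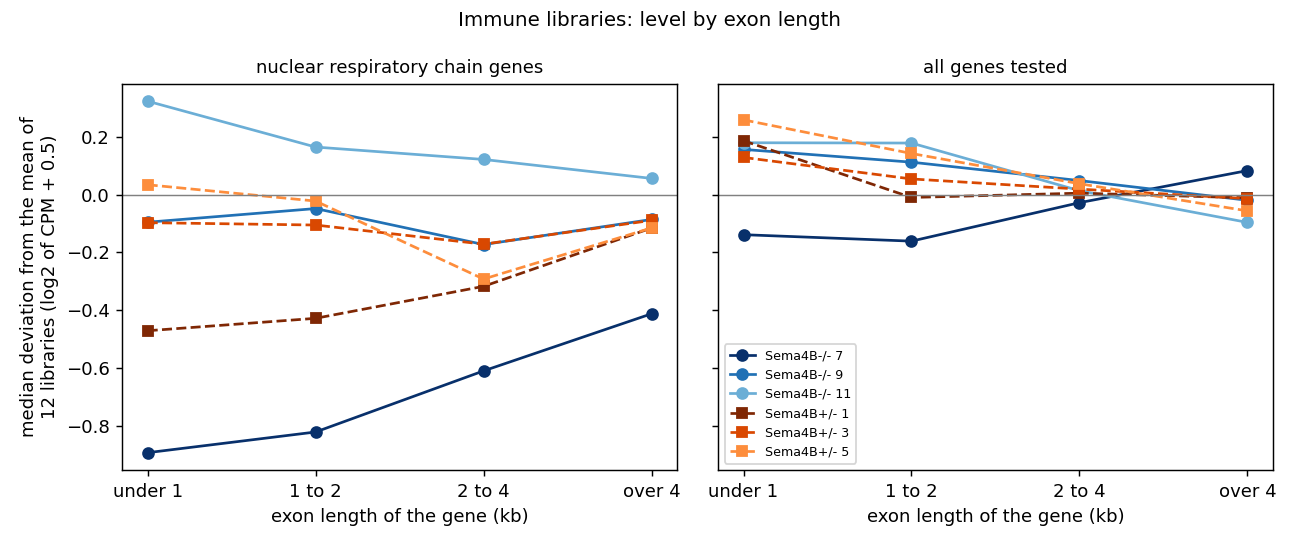
Median deviation of each immune library from the mean of the 12 libraries (log2 of CPM + 0.5) against exon length in 4 classes, for nuclear chain members (left) and all genes tested (right), with circles and solid lines for knockouts and squares and dashed lines for heterozygotes. Exon length is the union of all annotated exons of a gene. Libraries 7 and 1 dipped furthest in chain members of the shortest class, to -0.89 and -0.47, and library 11 stood at 0.32.

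Whether the genotype difference differed between the fractions was tested in the fit of all 12 libraries. No member passed (lowest adjusted p = 0.475, edgeR), and DESeq2 and limma-voom also called 0. At an unadjusted p under 0.05, 2 members were higher and 1 lower, where 4.06% of all 16880 genes were higher and 6.32% lower. The 2 were the ribosomal RNAs mt-Rnr1 (1.03 ± 0.38, unadjusted p = 0.017) and mt-Rnr2 (1.00 ± 0.42, unadjusted p = 0.031), whose genotype values in immune cells were 0.01 and -0.15. The member lower was Ndufa4l2 (-2.10 ± 0.97, unadjusted p = 0.048), and -1.04 without immune library 9, in which the mural markers were also highest among immune libraries. The median difference was 0.47 for the mt- rows and 0.21 for the nuclear ones, the nuclear value being -0.0019 without library 7 and 0.46 without library 11.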

How the data were processed

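RNA-seq of 12 libraries was deposited as 1 table per fraction. The submitters' processing notes name cutadapt, STAR, HTSeq, DESeq2 and the build GRCm38, without versions; the annotation is not given in the sources used here. The count columns are whole reads per gene, not normalized, per the file headers. The authors' log2 fold changes, p-values and adjusted p-values were deposited beside them. The 12 normalized columns were not used here. Libraries were assigned to groups by the fraction and genotype in the column heads, since their numbers differ in part from those of the titles.

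From the counts, edgeR 4.0.16 (R 4.3.3) quasi-likelihood F tests, two-sided, were fitted to all genes with TMM scaling and filterByExpr (minimum count 10, minimum total 15); the Benjamini-Hochberg adjustment ran over the whole table, threshold 0.05. Genotype was fitted within each fraction (6 libraries each), the fractions and their difference in 1 fit of 12 libraries. CPM used TMM-scaled totals of the 12 libraries, shares of reads the unscaled totals. Errors of fold changes are standard errors. Exon lengths, biotypes and coordinates came from GENCODE mouse release M21, and 20747 of 20776 rows matched. A gene was named if it was an mt- row or an isoform pair, or by rank of p or fold change at a mean of at least 5 CPM. Genes beyond these were chosen as examples after their values were seen. Pairs of libraries within groups differed by a mean chi-square per gene of 10.9 to 79.9, so none was a copy. Alternatives were DESeq2 1.42.0, limma-voom (limma 3.58.1), other scalings and filters, an exon-length offset and leaving out each library. The tests were checked on simulated data. Members, lists and rules were chosen with earlier results of these data known.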

Additional observations from a re-analysis of the deposited data

How the results depend on the processing

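No member was called between genotypes in either fraction or in their difference, with any library left out. Of the summary values recomputed under another setting, 372 stayed close and 54 moved, by a wide rule. A median fold change counted as close if it moved by less than the largest SD of library medians in the groups compared, 0.24 to 0.52. The immune nuclear median of 0.09 thus counted as close at -0.18 without library 11 and at 0.34 without library 7. Many of the close counts were 0 calls under both settings, so the tally does not measure how stable the values were. Of the values of named genes 953 kept their direction and side of the threshold, 32 calls were lost and 1 value reversed, Ndufa4l2 between genotypes in astrocytes (-0.32 with all libraries, -0.69 without library 4 and 0.071 without library 6). The length correction and the overlap of groups under other scalings were chosen after seeing the data.

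In astrocytes, members higher in knockouts at an unadjusted p under 0.05 numbered 3 in the fit of all 12 libraries, 5 with the length correction, 21 with upper-quartile scaling and 3 to 32 with a library left out, and those lower 0 to 1. Under RLE scaling 33 stood without overlap. In immune cells the members without overlap were 2 above and 1 below with unscaled totals, and 1 below with TMM of the fraction only or with upper-quartile scaling. Those lower at an unadjusted p under 0.05 numbered 1 in the fit of 12 libraries, and 0 to 1 with a library left out, while those higher numbered 0 to 2. For the difference between fractions limma-voom gave 4 higher and DESeq2 0 lower, and leaving out a library gave 0 to 8 higher and 0 to 1 lower. For astrocytes over immune cells in heterozygotes the length correction gave 59 members higher and a mt- median of 1.32, limma-voom gave 5 lower, and leaving out a library 1 to 4 lower. In knockouts leaving out a library gave 38 to 75 higher. The cause was not tested.

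By the longest transcript, the nuclear median level was 88.4 CPM per kb in astrocyte knockouts, 76.9 in astrocyte heterozygotes, 59.6 in immune knockouts and 57.8 in immune heterozygotes. Of reads outside mt- rows, nuclear members held 1.31% in astrocyte knockouts and 1.17% in astrocyte heterozygotes. No paired analysis was possible. The numbers in the titles run from 1 to 12 and are not shared between groups, and those of the columns differ from them in part. The column numbers alternate between the fractions within a genotype, but no label says that neighbouring numbers share an animal or a preparation, so they were not used as pairs.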
